A study of Mus musculus with 6 samples.

Results

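Transcripts of 35 lysosomal genes were described in red pulp macrophages of Bach2 knockout and wild-type mice. The genes were chosen by symbol and not by their values, and they encode proteases, glycosidases, sphingolipid enzymes, membrane proteins, a calcium channel, a transcription factor and subunits of the proton pump. An array probe carried a RefSeq accession of the gene for 34 of the 35. Of these, 32 passed the filter on dim probes and were tested among 18389 genes and transcripts. Red pulp macrophages are the macrophages of the spleen that engulf aged erythrocytes and recycle their iron. Bach2 knockout cells came from 3 male C57BL/6 mice lacking Bach2, a transcription factor that pairs with small Maf proteins. Wild-type cells came from 3 C57BL/6 mice, of which replicates 1 and 2 were male and replicate 3 was female. All 6 mice were 8 to 9 weeks old, no treatment is named, and cells were sorted from the spleen on a flow cytometer. Neither the gate markers nor the design of the deleted allele, including whether other cell types also lacked Bach2, are given in the sources used here. Replicate 3 of each genotype carries the same animal tag, P6, whose meaning is not stated.

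Lysosomes are acidic organelles in which engulfed material is broken down. A proton pump, the V-ATPase, acidifies the lumen, where cathepsins cut proteins and other hydrolases remove sugars and lipids, while glycosylated proteins such as LAMP1 line the membrane. TFEB, a transcription factor of the MiT/TFE family, activates many lysosomal genes through an E-box motif in their promoters. In a red pulp macrophage these organelles digest the remains of engulfed erythrocytes.

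RNA of each mouse was labelled with Cy3 and hybridised to its own array on a shared slide. The 3 knockout arrays formed row 2 of the slide and the 3 wild-type arrays row 1, which means that row effects and genotype cannot be told apart. Each of the 3 columns held the knockout and the wild-type replicate of the same number. Levels are log2 processed signal relative to the 75th percentile of the array, so 0 is that percentile, and differences are knockout minus wild type with the SE from limma. Levels of different probes are not compared as expression. The 75th percentile was 1553.3, 1171.1 and 3172.1 on knockout replicates 1, 2 and 3, against 1734.4, 1693.3 and 865.2 on wild-type replicates 1, 2 and 3. Column 3 therefore held both the highest percentile, in knockout, and the lowest, in wild type. It also set a male knockout mouse against wild-type replicate 3, the only female. Sex, column and the tag P6 therefore cannot be told apart in the differences within column 3. Of 14 tested red pulp macrophage markers 13 were well above background on all 6 arrays, among them Spic, Vcam1 and Adgre1. Bach2 itself read -2.42, -3.90 and -1.41 on the knockout arrays, against -1.09, -0.21 and -1.53 on the wild-type arrays. Knockout replicate 3 overlapped wild type, and the place of the Bach2 probe relative to the deleted part is not given, so the probe does not check the labels. With 3 arrays per genotype, precision is limited throughout.

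No lysosomal gene passed the test. Of 32 tested, 0 were called higher and 0 lower in knockout at a limma adjusted p under 0.05, in a comparison that called 0.0% of all genes in either direction. At an unadjusted p under 0.05 limma found 0 of 32 lysosomal genes, beside 235 of 18389 genes in all (1.28%). The knockout arrays lay entirely above the wild-type arrays for 0 of 32 lysosomal genes, against 1.17% of all genes, and entirely below them for 0 of 32, against 1.93% of all genes. For every tested lysosomal gene the limma adjusted p was 0.9999. The differences lay between -0.58 for Ctsb and 0.75 for Ctse. Of the 32 genes 23 had a difference below 0 (71.9%), where 61.2% of all genes did, and the median was -0.16 for the lysosomal genes and -0.11 for all genes.

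**Figure D1:**
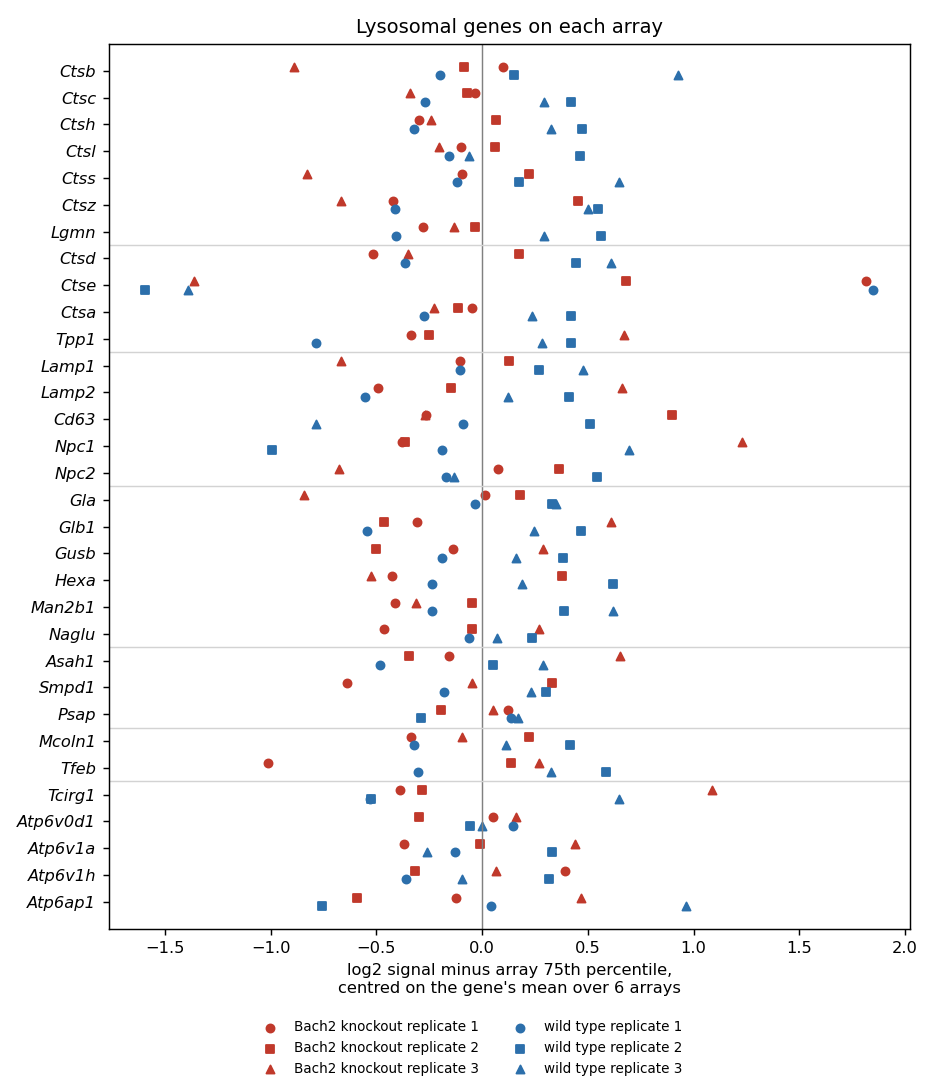
Levels of the 32 tested lysosomal genes on each array, grouped by role and centred on each gene's mean over 6 arrays (log2 signal relative to the 75th percentile, x axis). Red points are Bach2 knockout and blue points wild-type arrays, with a shape for each replicate, and the red and blue points overlap for every gene.

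The cysteine cathepsins and legumain, the proteases that carry out much of lysosomal protein breakdown, lay below 0 in 7 of 7 tested genes, with a median difference of -0.32. Of all genes 61.2% lay below 0. All 7 had a mean probe level of 6 or more, and 95.9% of all entries that bright lay below 0, with a median of -0.35. Ctsb, which encodes cathepsin B, read 8.02, 7.84 and 7.03 on the knockout arrays, against 7.72, 8.07 and 8.84 on the wild-type arrays. Knockout replicate 3 was the lowest and wild-type replicate 3 the highest, and the other 4 arrays were interleaved. Its difference was -0.58 ± 0.50 (SE, n = 3 each), with a 95% interval between -1.74 and 0.57 from limma. Before scaling, the Ctsb signal varied only 1.70-fold. It reached the range of the brightest spike-in controls on 4 of 6 arrays, though no spot was counted as saturated on any array. The unscaled signal was 402665, 267503 and 415117 on the knockout arrays, against 365381, 455127 and 397736 on the wild-type arrays. The order of the replicate 3 arrays turned with the scaling.

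Ctss, which encodes cathepsin S, a protease of antigen processing in macrophages, read 7.94, 8.26 and 7.21 on the knockout arrays, against 7.92, 8.21 and 8.68 on the wild-type arrays. Replicates 1 and 2 were close between the genotypes, and the difference of -0.47 ± 0.48 (SE) came from column 3, where it was -1.47, beside 0.027 and 0.048 in columns 1 and 2. Its unscaled signal was 382237, 358562 and 469158 on the knockout arrays, against 418926, 501653 and 355470 on the wild-type arrays, a 1.41-fold span that also reached the spike-in range on 4 arrays. Ctsz, which encodes the carboxypeptidase cathepsin Z, read 6.53, 7.40 and 6.28 on the knockout arrays, against 6.53, 7.49 and 7.45 on the wild-type arrays (-0.42 ± 0.51, SE). Ctsh, which encodes the aminopeptidase cathepsin H, read 6.47, 6.83 and 6.53 on the knockout arrays, against 6.45, 7.24 and 7.10 on the wild-type arrays (-0.32 ± 0.44, SE). In both genes the replicate 1 arrays of the genotypes were level, and wild-type replicates 2 and 3 were the highest 2 arrays. Legumain, Lgmn, an asparaginyl endopeptidase that also processes other cathepsins, differed by -0.30, Ctsc, the activator of granule serine proteases, by -0.29 and Ctsl by -0.16. The mean levels were 6.74 in knockout and 7.04 in wild type for Lgmn, 6.78 in knockout and 7.07 in wild type for Ctsc and 6.38 in knockout and 6.54 in wild type for Ctsl.

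Ctsk, which encodes cathepsin K, the collagen-cleaving protease of osteoclasts, was too dim to be tested. It read -4.52, -4.45 and -3.93 on the knockout arrays, none of them well above background, against -2.22, -2.54 and -3.67 on the wild-type arrays, of which 2 were. Wild-type replicate 3 and all knockout arrays were not well above background, so their order was not measured. With each knockout array set no lower than its lowest level that counted as above background, the wild-type mean was 1.14-fold higher. That is no lower bound, because wild-type replicate 3 was itself not well above background.

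Proteases of other classes split by direction. Ctsd, which encodes the aspartic protease cathepsin D, read 6.20, 6.89 and 6.36 on the knockout arrays, against 6.35, 7.16 and 7.32 on the wild-type arrays. The knockout array was the lower one in each column, at -0.15, -0.27 and -0.96 against its wild-type partner, but wild-type replicate 1 lay among the knockout arrays and the difference was -0.46 ± 0.47 (SE). Both tested Ctsd probes were below 0. Tpp1, a tripeptidyl peptidase, differed by 0.053. Ctsa, the serine carboxypeptidase that also protects beta-galactosidase and neuraminidase, differed by -0.26 by its brighter probe and by 0.29 by the other, the only disagreement in sign among 6 lysosomal genes with 2 tested probes. Mean levels stood at 1.86 in knockout and 1.81 in wild type for Tpp1 and 6.09 in knockout and 6.35 in wild type for Ctsa.

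Ctse, singled out after its values were seen, varied more between mice than any other tested lysosomal gene. It encodes cathepsin E, an aspartic protease that human erythrocytes carry in their membrane. Its level was 6.12, 4.99 and 2.94 on the knockout arrays, against 6.16, 2.71 and 2.92 on the wild-type arrays. Replicate 1 of both genotypes and knockout replicate 2 were high and the other 3 arrays low, an 18.9-fold span of unscaled signal. The difference of 0.75 ± 1.08 (SE) rested on column 2, where it was 2.27, beside -0.034 and 0.025 in columns 1 and 3. Of 9 erythroid markers on the list 8 were tested and all 8 were well above background on all arrays. Their mean, centred on each gene, was 1.37, 0.30 and -1.15 on the knockout arrays, against 1.64, -1.29 and -0.87 on the wild-type arrays. The mean level over the list ranged between 3.53 and 6.05 in knockout and between 3.39 and 6.31 in wild type. The arrays high for Ctse were thus the arrays high for erythroid markers, and the part of erythroid RNA in the Ctse values was not tested. In such bulk samples fewer cells of a type and less RNA per cell cannot be told apart. Klf1, the erythroid transcription factor, read 5.55, 4.38 and 1.33 on the knockout arrays, against 5.84, 1.51 and 1.94 on the wild-type arrays. The 3 highest arrays were the same as for Ctse in 6 of the 8 erythroid markers, and not in Hba-a1, an alpha globin, and Epor, the erythropoietin receptor.

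**Figure D2:**
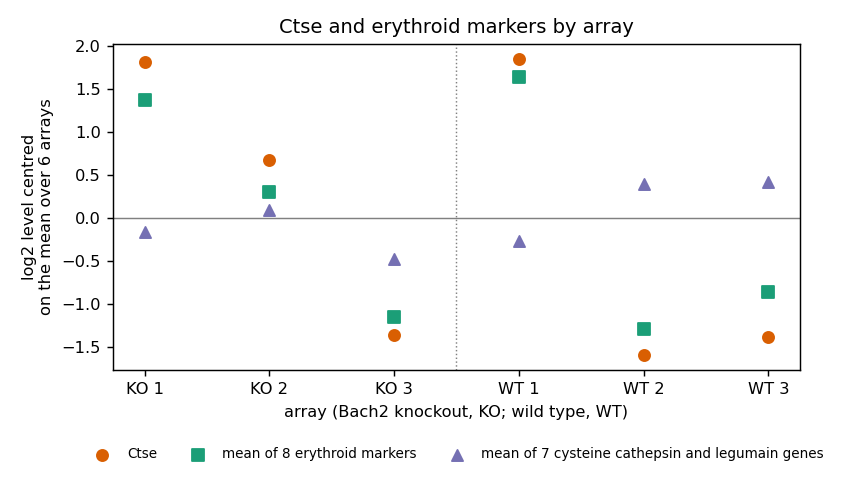
Centred log2 levels (y axis) on the 3 Bach2 knockout and 3 wild-type arrays (x axis) for Ctse, the mean of 8 erythroid markers and the mean of 7 cysteine cathepsin and legumain genes. Ctse and the erythroid mean are high on both replicate 1 arrays, at 1.37 and 1.64 for the markers, while the cathepsin mean stays between -0.47 and 0.42.

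The glycosidases, which strip sugars from glycoproteins and glycolipids, lay below 0 in 6 of 6 genes, with a median of -0.31. Of all genes 61.2% did. Man2b1, Gla and Hexa had a mean probe level of 6 or more. Of all entries that bright 95.9% lay below 0, with a median of -0.35. Gusb, Naglu and Glb1 had dimmer probes, and 58.8% of all dimmer entries lay below 0, with a median of -0.086. Man2b1, the lysosomal alpha-mannosidase, had the smallest unadjusted p of the 32 genes, 0.275 by limma. It read 6.04, 6.40 and 6.14 on the knockout arrays, against 6.22, 6.84 and 7.07 on the wild-type arrays. The knockout array was lower in all 3 columns, at -0.18, -0.44 and -0.93, and wild-type replicate 1 alone lay within the knockout range. The difference was -0.51 ± 0.44 (SE), with a 95% interval between -1.52 and 0.49. Gla, the alpha-galactosidase, read 7.15, 7.31 and 6.29 on the knockout arrays, against 7.10, 7.46 and 7.48 on the wild-type arrays (-0.43 ± 0.46, SE). As for Ctss, most of the Gla difference lay in column 3. Hexa, the alpha subunit of hexosaminidase, read 6.32, 7.13 and 6.22 on the knockout arrays, against 6.51, 7.37 and 6.94 on the wild-type arrays (-0.38 ± 0.48, SE). It was lower in the knockout array of each column, and the genotypes overlapped. Gusb, the beta-glucuronidase, differed by -0.23, Naglu, which acts on heparan sulphate, by -0.16, and Glb1, the beta-galactosidase, by -0.11. Their mean levels were 3.39 in knockout and 3.62 in wild type for Gusb, 2.83 in knockout and 3.00 in wild type for Naglu and 2.28 in knockout and 2.39 in wild type for Glb1.

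Of 3 genes of sphingolipid breakdown 2 lay below 0. Smpd1, the acid sphingomyelinase, differed by -0.24 and Asah1, the acid ceramidase, by 0.098. They averaged 2.54 in knockout and 2.77 in wild type for Smpd1 and 4.06 in knockout and 3.96 in wild type for Asah1. Psap, which encodes the precursor of the saposins that present lipids to these enzymes, read 6.49, 6.18 and 6.42 on the knockout arrays, against 6.51, 6.08 and 6.54 on the wild-type arrays. The genotypes were interleaved, with a difference of -0.012 ± 0.41 (SE) and a 95% interval between -0.96 and 0.94.

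Among membrane and cholesterol transport proteins 2 of 5 tested genes lay below 0. Lamp1, the main glycoprotein of the lysosomal membrane, read 7.39, 7.62 and 6.83 on the knockout arrays, against 7.39, 7.76 and 7.97 on the wild-type arrays. Columns 1 and 2 held nearly level arrays and column 3 a gap of -1.14, for a difference of -0.43 ± 0.44 (SE). Its relative Lamp2 differed by 0.015, and there knockout replicate 3 was the highest array at 4.89. The tetraspanin gene Cd63 differed by 0.24. Of the pair of proteins that pass cholesterol out of the lysosome, the membrane protein Npc1 differed by 0.33 ± 0.64 (SE) and the soluble carrier Npc2 by -0.16 ± 0.48 (SE). In this group the means were 4.23 in knockout and 4.22 in wild type for Lamp2, 3.47 in knockout and 3.22 in wild type for Cd63, 1.06 in knockout and 0.73 in wild type for Npc1 and 6.68 in knockout and 6.84 in wild type for Npc2. Cd68, a lysosomal glycoprotein of macrophages, had no probe that its accession named, and its level was not analysed here.

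Mcoln1, the calcium channel of the lysosomal membrane, read 2.44, 2.99 and 2.68 on the knockout arrays, against 2.45, 3.19 and 2.88 on the wild-type arrays (-0.14 ± 0.44, SE). The genotypes were interleaved. Tfeb, the transcription factor of the lysosomal programme, read -0.075, 1.07 and 1.20 on the knockout arrays, against 0.63, 1.52 and 1.26 on the wild-type arrays. Knockout replicate 1 was the lowest, the knockout array was lower in each column, and the difference was -0.41 ± 0.52 (SE).

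Subunits of the proton pump showed no common direction, with 2 of 5 tested genes below 0 and a median of 0.041. All 5 had a mean probe level under 6, unlike the cysteine cathepsins, so role and probe brightness cannot be told apart between these groups. Atp6v0d1, a subunit of the membrane sector found in most cells, read 4.40, 4.05 and 4.51 on the knockout arrays, against 4.50, 4.29 and 4.35 on the wild-type arrays. The 6 arrays lay close together and were interleaved, and the difference was -0.058 ± 0.41 (SE), with a 95% interval between -0.997 and 0.88. Tcirg1, the a3 subunit known from osteoclasts, differed by 0.28 ± 0.58 (SE), with replicate 3 of each genotype the highest and the knockout array the higher one in each column, at 0.14, 0.24 and 0.44. Atp6v1a and Atp6v1h, of the sector that hydrolyses ATP, differed by 0.041 and 0.093, and the accessory subunit Atp6ap1 by -0.16. Average levels were 2.48 in knockout and 2.21 in wild type for Tcirg1, 4.72 in knockout and 4.68 in wild type for Atp6v1a, 1.19 in knockout and 1.10 in wild type for Atp6v1h and 1.83 in knockout and 1.99 in wild type for Atp6ap1. Neither probe of Atp6v0d2, the d subunit of osteoclasts, was well above background on any array, and the brighter of them read -4.49, -4.44 and -5.92 on the knockout arrays, against -4.97, -6.54 and -4.28 on the wild-type arrays.

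Lysosomal genes with bright probes and those with dimmer ones lay on different sides of 0 by their medians. Of 15 genes with a mean probe level of 6 or more, all 15 lay below 0, with a median of -0.38. The same was seen in all 1167 tested entries of that brightness, of which 95.9% lay below 0, with a median of -0.35. Of 17 dimmer lysosomal genes 8 lay below 0, with a median of 0.015, against -0.086 for all dimmer entries. Across the 32 genes Spearman's rho of probe level and difference was -0.66, a description over genes that share the same 6 arrays, and across all 18389 entries it was -0.11. Within columns 1, 2 and 3 it was 0.17, 0.085 and -0.76 for the lysosomal genes, and 0.10, -0.14 and -0.080 for all entries.

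**Figure D3:**
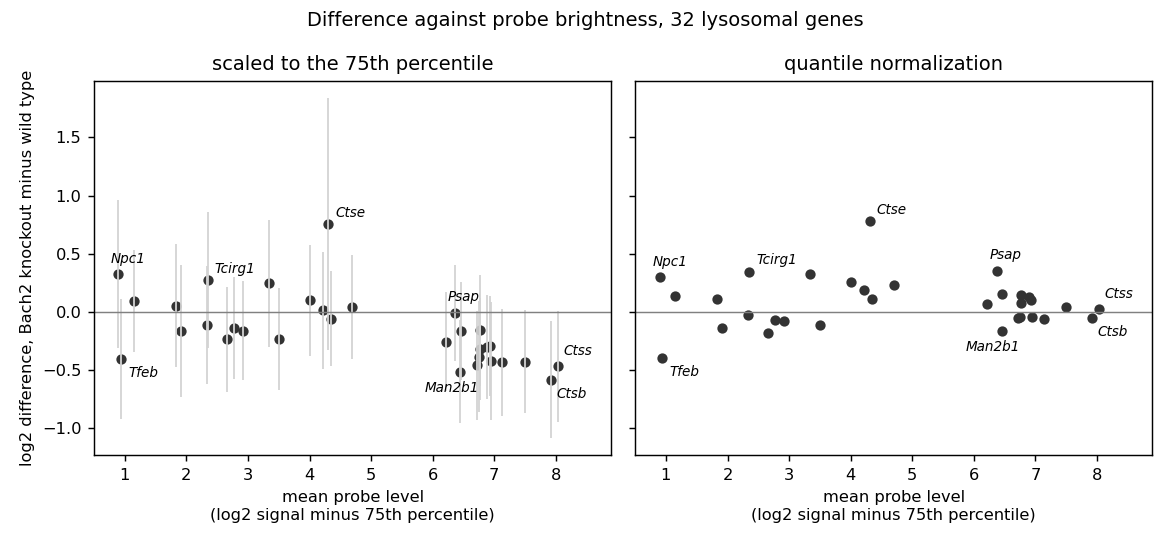
Log2 difference, Bach2 knockout minus wild type (y axis), against mean probe level (x axis) for 32 lysosomal genes, with the arrays scaled to the 75th percentile (left, bars are the SE) and after quantile normalization (right). At levels of 6 or more all 15 points lie below 0 on the left, and 6 of 15 do on the right.

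The bright genes had median differences of 0.027, -0.24 and -0.72 in columns 1, 2 and 3. All entries of that brightness had -0.017, 0.014 and -0.99. Column 2 thus held a lower median for the bright lysosomal genes, with 13 of 15 below 0, than for all bright entries, while in column 3 the bright lysosomal genes lay less far below 0 than all bright entries did. Among the dimmer lysosomal genes the medians were -0.034, -0.29 and 0.20. Knockout replicate 3 was the lowest array for 9 of the 15 bright genes and the highest for 9 of the 17 dimmer ones. Over all entries it was the lowest for 1065 of the 1167 bright and the highest for 3323 of the 17222 dimmer ones. Quantile normalization, which gives every array the same distribution, left 13 of 32 lysosomal genes below 0, 6 of them among the 15 bright ones, and a median of 0.070. Scaling to the array median left 20 of 32 below 0, and moved the median of all genes by 0.13, to 0.015. Ctsh, Ctss and Lamp1, below 0 when scaled to the 75th percentile, stood at 0.074, 0.028 and 0.039 after quantile normalization. Of the other cysteine proteases Ctsc, Ctsl and Lgmn were then above 0 as well, at 0.11, 0.16 and 0.13. Ctsb and Ctsz stayed below, at -0.051 and -0.044.

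**Figure D4:**
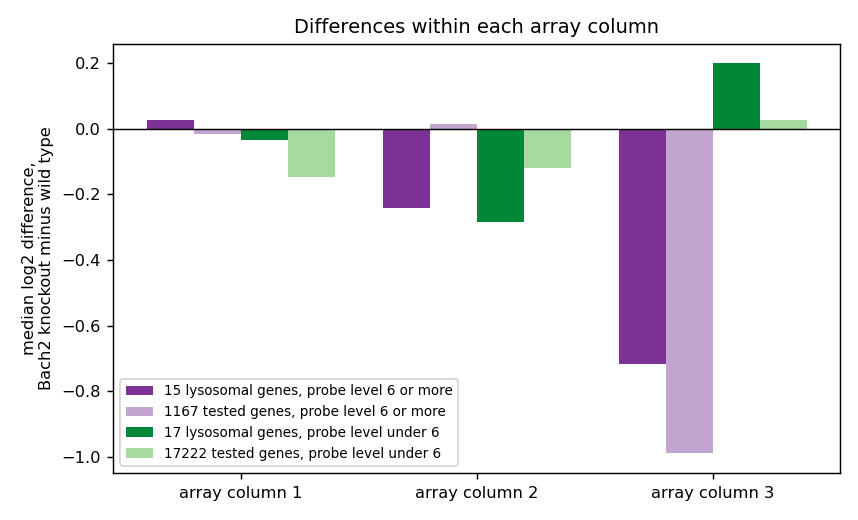
Median log2 difference, Bach2 knockout minus wild type (y axis), within each array column (x axis) for lysosomal genes and all tested genes, split at a mean probe level of 6. Bright lysosomal genes reach -0.72 and all bright genes -0.99 in column 3, while columns 1 and 2 hold smaller medians.

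Single mice moved these values further. Without wild-type replicate 1, 12 of 32 lysosomal genes had no overlap between the genotypes, 11 of them lower in knockout, where 9.13% of all genes were lower and 6.46% higher without overlap. The 11 were Ctsa, Ctsb, Ctsc, Ctsd, Ctsh, Ctsz, Gla, Lamp1, Lgmn, Man2b1 and Tfeb, and Ctse was higher. Of the 11 all but Tfeb had bright probes. The median over 32 genes was -0.36, against -0.155 for all genes in this setting. For the bright lysosomal genes it was -0.58, against -0.45 for all bright entries. The part of probe brightness in the counts without overlap was not tested. In the full set wild-type replicate 1 had been the lowest array for 9 lysosomal genes, among the 11 only for Ctsa, Ctsh and Lgmn. Knockout replicate 3 had been the lowest for 9 as well. Over all 18389 entries these arrays were the lowest for 2506 and 4739. Without both P6-tagged mice, 11 of the 15 bright lysosomal genes lay below 0, with a median of -0.13, against 0.0004 for all bright entries. No lysosomal gene passed the limma test in any of these settings.

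Promoters, which the choice of genes had not used, were searched for an E-box of the kind TFEB binds and for the Maf core. RefSeq promoter windows of assembly GRCm38.p6, 250 bases before to 50 bases after a start site, were matched for 28 of the 35 genes. The E-box CACGTG stood in a window of 11 of these 28 genes (39.3%), against 8.09% of 27025 genes. TCACGTGA, an extended E-box that contains the first motif, stood in 6 of 28 (21.4%), against 1.12%. TGANTCA, the core of Maf recognition elements to which BACH factors bind with small Maf partners, stood in 3 of 28, Cd68, Glb1 and Psap, against 8.97%. Both strands were searched, and each motif reads the same on either. Lamp1 held 4 E-boxes within 61 bases before its start site and Mcoln1 held 2 within 71 bases. A match describes the letters of the window and does not show binding. The 110 bases before the start site are printed for Lamp1 and Mcoln1, which held several E-boxes near the start, for Ctsd with the extended E-box, for Glb1, whose E-box and Maf core overlap, and for Psap with a Maf core alone. Capitals mark E-boxes and Maf cores. They lie at chr8:13159051-13159160 on the plus strand (Lamp1), chr8:3500409-3500518 on the plus strand (Mcoln1), chr7:142387828-142387937 on the minus strand (Ctsd), chr9:114400968-114401077 on the plus strand (Glb1) and chr10:60277518-60277627 on the plus strand (Psap).
Lamp1: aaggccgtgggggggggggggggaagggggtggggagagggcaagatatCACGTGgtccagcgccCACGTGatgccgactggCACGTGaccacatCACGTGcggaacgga
Mcoln1: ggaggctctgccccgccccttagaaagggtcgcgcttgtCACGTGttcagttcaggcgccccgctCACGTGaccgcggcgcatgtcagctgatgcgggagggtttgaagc
Ctsd: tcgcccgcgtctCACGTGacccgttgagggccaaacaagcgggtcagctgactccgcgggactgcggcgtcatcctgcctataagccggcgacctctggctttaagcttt
Glb1: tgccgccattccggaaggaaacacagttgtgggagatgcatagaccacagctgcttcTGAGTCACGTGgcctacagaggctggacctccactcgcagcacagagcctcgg
Psap: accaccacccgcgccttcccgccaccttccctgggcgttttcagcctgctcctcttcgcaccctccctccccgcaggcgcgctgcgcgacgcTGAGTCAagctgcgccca

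By their medians, lysosomal genes with the E-box were not lower in knockout than those without it. The 11 tested genes with it had a median difference of -0.16, spanning -0.46 for Ctsd to 0.041 for Atp6v1a, and the 15 tested genes with a window and no E-box had a median of -0.23. Of the 4 genes printed with an E-box, Lamp1 and Ctsd differed by -0.43 and -0.46, and Mcoln1 and Glb1 by -0.14 and -0.11. Psap and Glb1, the 2 tested genes with a Maf core, differed by -0.012 and -0.11. None of these differences passed the limma test given above.

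Other genes of the same organelle, on lists of 83 genes, were read the same way. Of 78 tested 0 were called by limma, 57 lay below 0 (73.1%, against 61.2% of all genes), and the median was -0.15, against -0.11 for all genes. The genotypes did not overlap for 3 of the 78, all lower in knockout, where 1.93% of all genes were. The first was Atp6v0a1, an a subunit of the proton pump, at 2.87, 3.17 and 3.06 on the knockout arrays, against 3.45, 3.45 and 3.86 on the wild-type arrays (-0.55 ± 0.41, SE). Another was Atp6v0c, the ring subunit of the pump, at 4.57, 4.69 and 4.57 on the knockout arrays, against 4.84, 4.94 and 5.56 on the wild-type arrays (-0.50 ± 0.43, SE). Dnase2a, the acid nuclease that degrades engulfed DNA, read 5.25, 5.30 and 4.98 on the knockout arrays, against 5.34, 5.83 and 5.74 on the wild-type arrays (-0.46 ± 0.42, SE). For Dnase2a the gap was narrow, with knockout replicate 2 at 5.30 and wild-type replicate 1 at 5.34.

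By list, 23 of 30 hydrolases, 15 of 21 membrane and sorting proteins, 9 of 12 further pump subunits and 10 of 15 genes of the MiT/TFE factors and nutrient sensing lay below 0. The smallest p in each list belonged to Ctso, a cysteine protease, at -1.12 ± 0.74 where 1 of 3 knockout arrays and 2 of 3 wild-type arrays exceeded background, to the sialic acid exporter Slc17a5 at -1.21 ± 0.78, to Atp6v0a1, and to Lamtor4, of the Ragulator complex, at -0.46 ± 0.56 (SE). Idua, the alpha-iduronidase, came next among hydrolases at -1.10 ± 0.74, Slc38a9, an arginine sensor, next among membrane proteins at -0.80 ± 0.67, and Tfec, a relative of Tfeb, next among the factors at -0.35 ± 0.52 (SE). Each had a limma adjusted p of 0.9999. In Idua and Slc17a5 wild-type replicate 3 stood apart, at 5.76 and 5.77. The authors' deposited table held 279 of the 55681 probes on the array, so few genes of any list would be in it. No probe of the 35 genes was listed, and of the other lysosomal genes only Atp6v0c was. Its log2 values were -0.20, -0.082 and -0.14 on the knockout arrays, against 0.082, 0.23 and 0.79 on the wild-type arrays.

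Markers of red pulp macrophages, and of other cell types of the spleen, were read on the same scale. The 14 tested red pulp macrophage markers all lay below 0, where 61.2% of all genes did, with a median of -0.48. Several had bright probes, such as Slc40a1, Vcam1 and Adgre1. Of all entries at a level of 6 or more 95.9% lay below 0, with a median of -0.35. The markers with dimmer probes lay below 0 as well, where 58.8% of all dimmer entries did. They were Spic at -0.41, Treml4 at -0.38, Mertk at -0.27, Siglec1 at -0.023 and Cd163 at -1.30. Cd163 was well above background on 1 of 3 knockout arrays. The part of probe brightness in the marker values was not tested. Slc40a1 alone was lower without overlap, against 1.93% of all genes. The mean level over the list was between 5.12 and 5.40 in knockout and between 5.23 and 6.38 in wild type. The 13 tested markers of NK cells and cytotoxic lymphocytes all lay above 0, with a median of 0.76. Of these 5 were higher in knockout without overlap, against 1.17% of all genes. Their mean level was between 1.45 and 2.66 in knockout and between 0.56 and 1.13 in wild type. The 8 tested T cell markers all lay above 0, with a median of 1.12, and 4 of them were higher in knockout without overlap. Their mean level was between 1.68 and 3.05 in knockout and between 0.98 and 1.497 in wild type. On all 6 arrays 12 of the 13 and 8 of the 8 were well above background. Of 10 tested neutrophil markers 8 lay above 0, with a median of 1.004, and 1 was higher in knockout without overlap. Their mean level was between 1.75 and 4.10 in knockout and between 1.08 and 2.52 in wild type. The other lists had medians of 0.54 for erythroid cells, 0.36 for inflammatory monocytes, 0.11 for plasma cells, 0.057 for B cells and -0.0051 for dendritic cells. On these lists only Cr2, a B cell marker, had no overlap, and it was lower in knockout. The part of these cells in the lysosomal values was not tested. Ctsw, a cathepsin of NK and cytotoxic T cells and a marker on the NK list, read 0.36, 2.16 and 0.33 on the knockout arrays, against 0.061, 0.18 and -0.25 on the wild-type arrays (0.95 ± 0.58, SE), without overlap. Cst7, an inhibitor of cathepsins found in the same cells, differed by 0.63 ± 0.59 (SE), whereas Cst3, the cystatin C of macrophages and most other cells, differed by -0.38 ± 0.52 (SE). Knockout replicate 2 was the highest array for Ctsw and Cst7, as it was for the mean of the NK, T cell and neutrophil lists.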

How the data were processed

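The deposited scanner files hold the intensity of each spot, read by the authors with Agilent Feature Extraction, version 10.7.3.1 per the file headers and 9.1 per the submitters' processing notes. This processed intensity had its background subtracted within each array, per the file headers. Outlier-flagged spots and controls were left out, and spots of a probe were averaged. Accessions were named through RefSeq GRCm38.p6, which named 26413 of 55681 probes, and its coordinates are printed for promoters only, since the array design refers to another build. Log2 intensity minus the array's 75th percentile was tested with limma 3.58.1 (lmFit, then eBayes) under R version 4.3.3. Probes had to be well above background on at least 3 of 6 arrays, the probe with the highest mean stood for a gene, and p-values were adjusted by Benjamini-Hochberg over 18389 entries. The fit was tested on simulated data. Slide and scan time were shared by all arrays. The authors' deposited table holds log2 values of 279 probes, whose centring is not given in the sources used here. Their column medians were -0.29, -0.23 and -0.26 for knockout and 0.32, 0.34 and 0.28 for wild type. Genes given on each array were by rule the 10 lysosomal genes with the smallest p and the anchors Lamp1, Tfeb, Mcoln1, Atp6v0d1 and Atp6v0d2. The other lysosomal genes were named with their means, and up to 2 genes per other list by smallest p. Ctse, Psap, Ctsk, Dnase2a, Ctsw, Klf1, Hba-a1 and Epor were singled out after their values were seen. Replicates are separate mice numbered in record order. The genes, lists and tests were chosen with earlier results of these data known. Alternatives covered scaling, background correction, the probe filter, the probe of a gene, the spread model, the array column and single mice.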

Additional observations from a re-analysis of the deposited data

How the results depend on the processing

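Under 15 alternatives limma called 0 genes in all, 0 of the tested lysosomal genes and 0 of the other lysosomal genes. The smallest adjusted p over the 13 lysosomal genes recomputed under each alternative was 0.9978, and 185 of their 195 values kept their direction. The other probe filters, the other spread model and the column block gave these genes the same differences as the main fit. Direction could not change in those settings, so that count is no measure of robustness. With quantile normalization the median of the lysosomal genes was 0.070, Atp6v0d1 stood at 0.11, Ctsh at 0.074, Ctss at 0.028 and Lamp1 at 0.039, and Atp6v0d1 stood at 0.067 with arrays scaled to their median. Without both P6-tagged mice Ctsb stood at 0.032 and Ctss at 0.037. That setting also leaves out the only female mouse. Leaving out each mouse moved the median between -0.36 and -0.10, Atp6v0d1 between -0.15 and 0.076, and Mcoln1 between -0.33 and 0.036. With no filter on dim probes 1 lysosomal gene had no overlap, Ctsk, lower in knockout like 1.85% of all genes there. That rests on knockout arrays and wild-type replicate 3, none well above background for Ctsk, so the order was not measured. Without the P6-tagged mice 2 had no overlap, Ctsk lower like 13% and Tcirg1 higher like 5.14% of all genes. Ctsk was then well above background on wild-type arrays only. Entry into the test through wild type favours the lower direction, so no conclusion is drawn for Ctsk. The number lay between 0 and 12 without each mouse in turn. Settings that leave out mice have fewer arrays that could overlap. Ctse stood between 0.035 and 1.87 without each mouse in turn, lowest without knockout replicate 1 and highest without wild-type replicate 1. The cause of the other changes was not tested. At an unadjusted p under 0.05 limma found 235 genes, and 582 with the array column as a block, 733 without wild-type replicate 1 and 165 with normexp correction. The block pairs the arrays of a column. Replicate numbers, given in record order, coincide with the columns, so differences within a column also compare mice of the same number. No pairing of the mice is stated beyond the shared tag P6. Normexp was run on median signals, an alternative chosen after seeing the data, since the planned mean signals were not run. Depth is not known for arrays. Ctsb and Ctss each lay in the range of the brightest spike-in controls on 4 of 6 arrays. No spot was counted as saturated, at a saturation value of 778702. Whether the signals of these 2 genes were capped was not tested.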
